A study of Mus musculus with 2 samples.

Results

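The 10 genes described here encode Toll-like receptors and the proteins that work directly with them: the receptors Tlr1, Tlr2, Tlr3, Tlr4, Tlr7, Tlr8, Tlr9 and Tlr13, the co-receptor Cd14 and the adaptor Myd88. They were taken by symbol from the 31253 genes listed in each of the libraries. Toll-like receptors are the sensors through which myeloid cells recognise microbial molecules and molecules set free by dying cells. Tlr1, Tlr2 and Tlr4 sit at the cell surface and bind lipoproteins or lipopolysaccharide, with Cd14 handing the ligand over, whereas Tlr3, Tlr7, Tlr8, Tlr9 and Tlr13 sit in endosomes and bind nucleic acids. All of these receptors except Tlr3 signal through Myd88 to NF-kappaB and to interferon regulatory factors, and Tlr3 uses the adaptor Ticam1 instead.

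The study sequenced CD45+ immune cells sorted from B16-F10 melanomas, a transplanted tumor line of C57BL/6 mice, to compare mice with and without Irg1. Irg1, listed in the files under its gene symbol Acod1, encodes the enzyme that makes itaconate in activated myeloid cells and is itself a target of Toll-like receptor signalling. The Irg1-/- animals had been bred onto C57BL/6J and the deletion was germline, so every cell of the Irg1-/- host carried it while the injected tumor cells did not. Both groups received 200000 B16-F10 cells under the skin of the right flank and no other treatment, and pieces of 100 mm3 from the tumors of 3 mice were pooled on day 10. The age of the mice was not given in the labels. Each genotype was therefore 1 library of 3 pooled animals made on the BD Rhapsody microwell system, so differences between the libraries have no replicate check, carry no p-value and cannot be told apart from differences between the pools. The cells were counted as UMIs (unique molecular identifiers, 1 per captured mRNA molecule), 43617546 in the Irg1+/+ library and 36432067 in the Irg1-/- library. Of the 6408 and 5896 barcodes, 6284 and 5794 had under 10% mitochondrial UMIs and were kept, with medians of 4528 and 4594.5 UMIs per cell. The libraries shared 36 barcodes.

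Acod1 was present in both libraries. It had 3696 UMIs in the Irg1+/+ library and 3805 in the Irg1-/- library, which are 87.8 and 108 per 1000000 UMIs (CPM) of the kept cells. UMIs of this system are read at the 3′ end of the transcript and the labels do not give the deleted exons, so these counts do not check the genotype, and the second library is called the library labelled Irg1-/- throughout.

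Cells were assigned to types by marker genes that include none of the 10 members, and the types are named for their marker lists. Of the kept cells, 4780 and 4561 passed exactly 1 gate, 346 and 469 passed more than 1 gate and were set aside, and 1158 and 764 passed none. The 13 myeloid types held 3065 cells in the Irg1+/+ library and 3136 in the library labelled Irg1-/-. Classical monocytes were split into interferon (IFN)-low monocytes (618 and 680 cells) and IFN-high monocytes (240 and 371) by Cxcl9, Cxcl10, Gbp2 and Gbp5, and nonclassical monocytes numbered 83 and 69. Macrophages were split into Vegfa (281 and 169), MHC-II (408 and 398), Mrc1 (242 and 170) and other macrophages (121 and 133). The dendritic cells were type 1 conventional dendritic cells (cDC1, 243 and 162), type 2 conventional dendritic cells (cDC2, 276 and 377), mature dendritic cells (mature DC, 393 and 298) and plasmacytoid dendritic cells (pDC, 40 and 30). The granulocytes were neutrophils (52 and 164) and eosinophils (68 and 115), which were shallow, with medians of 1678 and 1816 UMIs for neutrophils and 779.5 and 990 for eosinophils.

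The levels of the marker lists in their own types follow. The gates used the same lists, so these levels describe the types and do not check their labels. All markers of the lists for classical monocytes, macrophages and each class of dendritic cell were detected in their own type, led by Plac8 or Ly6c2 in monocytes, C1qb in MHC-II, Mrc1 and other macrophages, Wdfy4 in cDC1, Fscn1 in mature DC and Siglech in pDC. Neutrophils were led by S100a9 at 6505 and 9809 CPM, and of the 8 eosinophil markers 1 was at 0 in each library. The splits within monocytes and macrophages are cuts through continuous scores. Near the IFN cut lay 103 of 858 classical monocytes in the Irg1+/+ library and 106 of 1051 in the other. Of the macrophages that each split was applied to, 91 of 1052 and 62 of 870 lay near the Vegfa cut, 137 of 771 and 135 of 701 near the MHC-II cut, and 38 of 363 and 42 of 303 near the Mrc1 cut.

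Each value below is a level in CPM, the UMIs of a gene summed over the cells of a type per 1000000 UMIs of those cells, with an exact 95% Poisson interval. These intervals, and the exact Clopper-Pearson intervals of shares of cells, cover counting error only. Because RNA set free from lysed cells can give UMIs in any well, the level in T cell-like cells (1291 and 739 cells, median 3818 and 3288 UMIs) is given as the background. Shares of cells with a UMI are given after thinning each cell to 2000 UMIs, with shallower cells left out, since the myeloid types differ in depth. Levels are compared for 1 gene across types. Where the gene with the most or fewest UMIs of a list is named, this is a count of captured 3′ ends and not a comparison of expression.

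The genes of the receptors and of Myd88 lie as follows in the mouse build GRCm38, in the coordinates of GENCODE M21. Tlr1 is at chr5:64924679-64933563 on the minus strand, Tlr2 at chr3:83836272-83841767 on the minus strand, and Tlr4 at chr4:66827584-66930284 on the plus strand. Of the endosomal receptors, Tlr3 is at chr8:45395665-45411080 on the minus strand, Tlr9 at chr9:106222598-106226883 on the plus strand, and the other three are on the X chromosome: Tlr7 at chrX:167304929-167330558 and Tlr8 at chrX:167242696-167264329, both on the minus strand, and Tlr13 at chrX:106143204-106160493 on the plus strand. Myd88 is at chr9:119335934-119341411 on the minus strand. Its gene body overlaps Acaa1a on the opposite strand and Slc22a14 on the same strand. Slc22a14 had no UMIs in the myeloid types, whereas Acaa1a had 22.6 to 64.2 CPM in them, and the use of strand in counting is not given in the sources used here, without which reads from Acaa1a and Myd88 cannot be told apart. Stretches of 50 bases were compared only among the members and Tlr5, Tlr6, Tlr11 and Tlr12. Of those of the Tlr1 transcripts, 13.6% (454 of 3332) also occur in Tlr6. Where these lie in the transcript was not examined, so the share of Tlr1 UMIs affected is not known. No stretch of the other members occurred in a second gene of this set.

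The promoters of 3 members are shown because Tlr3 and Tlr9 had the highest folds of 1 myeloid type over the rest in the Irg1+/+ library and Myd88 is the adaptor that the other receptors share. RefSeq promoters (250 bases before to 50 bases after the start site, GRCm38.p6) were used for 7 of the 10 members, and Tlr4, Tlr7 and Cd14 were not searched. They were searched on both strands for the letters GAAANNGAAA (interferon-stimulated response element), GGGNNTTTCC (kappaB), GAGGAAGT (PU.1), TGANTCA (AP-1) and GGAANNGAAA (the composite element of PU.1 and interferon regulatory factors). Capitals mark a match, which is a match of letters and not a bound site. The Tlr3 window is chr8:45410331-45410630 (minus strand), the Tlr9 window chr9:106222348-106222647 (plus strand) and the Myd88 window chr9:119339969-119340268 (minus strand).
Tlr3: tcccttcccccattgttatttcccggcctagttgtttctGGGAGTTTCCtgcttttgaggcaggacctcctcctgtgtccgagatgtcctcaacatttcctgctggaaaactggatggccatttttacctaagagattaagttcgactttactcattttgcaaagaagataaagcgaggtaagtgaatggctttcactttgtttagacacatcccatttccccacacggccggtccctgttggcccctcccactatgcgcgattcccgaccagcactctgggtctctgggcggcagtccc
Tlr9: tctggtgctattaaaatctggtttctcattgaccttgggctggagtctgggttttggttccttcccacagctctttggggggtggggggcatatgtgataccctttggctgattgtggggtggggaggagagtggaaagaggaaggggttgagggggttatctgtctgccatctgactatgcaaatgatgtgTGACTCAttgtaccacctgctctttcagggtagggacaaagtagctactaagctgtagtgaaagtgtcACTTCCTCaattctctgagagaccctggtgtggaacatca
Myd88: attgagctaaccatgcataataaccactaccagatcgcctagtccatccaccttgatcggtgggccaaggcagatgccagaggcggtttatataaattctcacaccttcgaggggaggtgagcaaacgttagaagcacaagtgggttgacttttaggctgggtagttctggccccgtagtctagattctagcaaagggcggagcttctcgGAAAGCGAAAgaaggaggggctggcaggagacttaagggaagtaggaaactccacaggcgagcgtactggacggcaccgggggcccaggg
The Tlr3 window held the kappaB letters at -211 from the start site, present in 1.63% of all 32851 promoters. The Tlr9 window held the AP-1 letters at -58 (7.81% of promoters) and, on the reverse strand, the PU.1 letters at 11 (3.2%). The Myd88 window held the interferon-stimulated response element letters at -40, which occur in 3.44% of promoters. Of the other windows, 1 of Tlr1 held the PU.1 letters at -23, and the composite element, present in 2.72% of promoters, matched in none of the windows searched.

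Most UMIs of these genes in typed cells came from the 13 myeloid types, between 82.4% (Myd88, Irg1+/+) and 97.7% (Tlr8, both libraries). Over all genes, these types held 69.0% and 74.5% of the UMIs in typed cells, so the excess was smallest for Myd88. Cd14 had the most UMIs, 22213 and 16787, and Tlr9 the fewest, 402 and 587. For each member the highest myeloid type was chosen in the Irg1+/+ library and then read in the library labelled Irg1-/-, which had no part in the choice. The same type was highest there for 9 of the 10 members, Tlr8 being the exception. The log2 fold of the highest type over all other myeloid cells had a median over the members of 1.47 and 1.49.

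**Figure D1:**
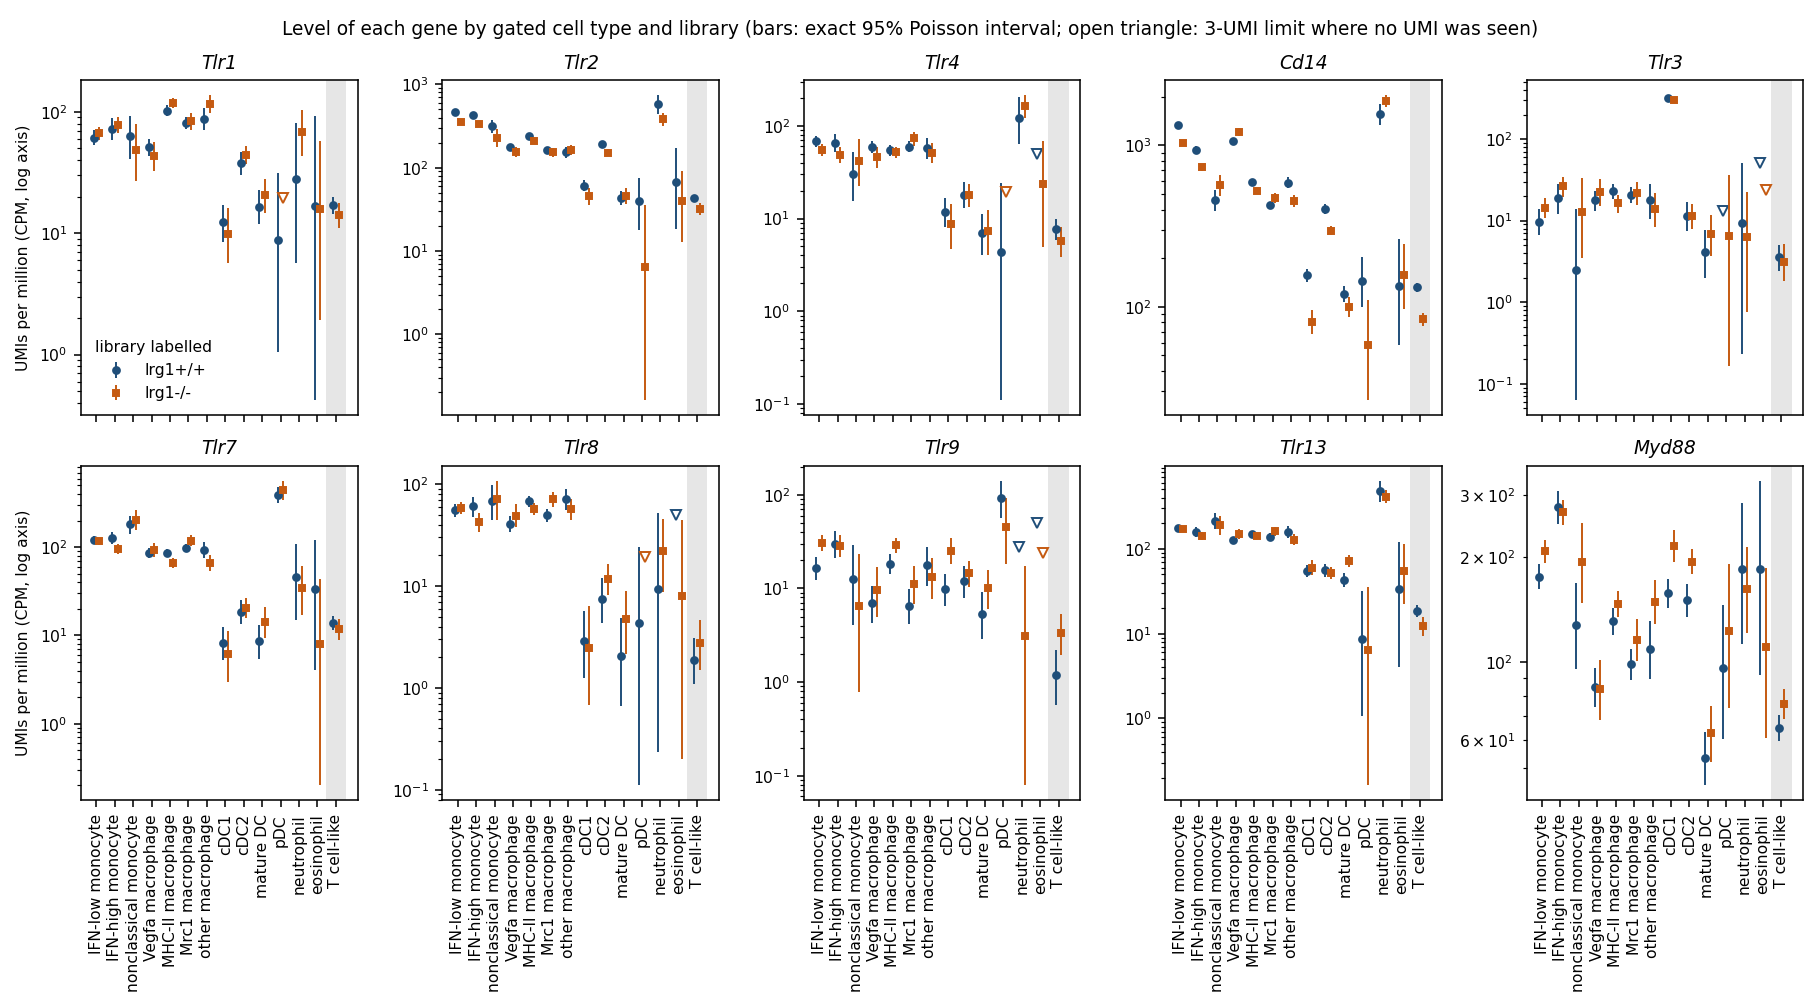
Level of each gene in CPM (log axis) in the 13 gated myeloid types and in T cell-like cells (grey band), for the library labelled Irg1+/+ (circles) and the library labelled Irg1-/- (squares). Bars are exact 95% Poisson intervals and open triangles the limit of 3 UMIs where none was seen. Tlr3 stands out in cDC1 at 320 and 301 CPM, Tlr7 in pDC at 390 and 445 and Tlr13 in neutrophils at 481 and 412, while Tlr2 and Cd14 have overlapping intervals in neutrophils and IFN-low monocytes of the Irg1+/+ library.

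Among the surface receptors, Tlr2 was most abundant in neutrophils and classical monocytes. It is the partner of Tlr1 and Tlr6 in lipoprotein recognition and was at 574 CPM (440 to 735) in Irg1+/+ neutrophils, whereas those of the library labelled Irg1-/- had 384 (319 to 458). IFN-low monocytes had 466 (442 to 490) and 351 (332 to 371), and IFN-high monocytes 430 and 338. These 3 types could not be ordered, because their intervals overlapped from each to the next in both libraries. Nonclassical monocytes followed at 314 and 229 CPM, apart from the IFN-high monocytes above them in both. MHC-II macrophages had 243 and 210 CPM and the remaining macrophages and cDC2 152 to 192. cDC1 (60.6 and 45.6) and mature DC (43.8 and 45.9) were close to the T cell-like background of 42.9 and 32.0. At equal depth 50.3% (46.0 to 54.6) and 44.3% (40.3 to 48.4) of IFN-low monocytes had a Tlr2 UMI, against 6.60% and 5.94% of T cell-like cells (70.7% and 63.1% against 19.1% and 16.9% before thinning).

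Cd14, a membrane-anchored protein that passes lipopolysaccharide to Tlr4 and lipoproteins to Tlr2, is encoded at chr18:36725067-36726798 on the minus strand. It reached 1564 CPM (1337 to 1818) and 1883 (1735 to 2039) in neutrophils. IFN-low monocytes had 1346 (1306 to 1386) and 1030 (997 to 1063), and Vegfa macrophages 1061 (1024 to 1099) and 1211 (1151 to 1274). The order of monocytes and Vegfa macrophages was thus opposite in the libraries, with intervals apart in each. IFN-high monocytes had 934 and 730 CPM, and MHC-II macrophages 590 and 521. Neutrophils exceeded all other myeloid cells by 1.34 (1.11 to 1.56) and 1.77 (1.65 to 1.88) on the log2 scale. The background of Cd14 was high, since T cell-like cells had 132 and 83.8 CPM, and 20.6% and 13.3% of them a UMI at equal depth. The levels in cDC1 (157 and 80.8 CPM), mature DC (120 and 99.8), pDC (144 and 58.0) and eosinophils (134 and 158) were 0.69 to 1.89 times that background. NK cells had 102 and 97.0 CPM and B cells 69.1 and 59.6. The part of free RNA in the detection of Cd14 in those dendritic cells and eosinophils was not tested. IFN-low monocytes, at 84.5% and 73.1% of cells, and Vegfa macrophages, at 81.3% and 76.1%, were far above the T cell-like share.

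Tlr4, the lipopolysaccharide receptor, was also highest in neutrophils, at 120 CPM (64.0 to 206) from 13 UMIs and 162 (121 to 213) from 52. The neutrophil interval overlapped that of the IFN-low monocytes next to it (68.3 CPM, 59.6 to 78.0) in the Irg1+/+ library, and was apart from that of the Mrc1 macrophages next to it (73.2, 61.2 to 87.0) in the other. Monocytes and macrophages other than nonclassical monocytes lay between 46.0 and 73.2 CPM in both libraries. The dendritic cells were low, with cDC2 at 18.2 and 17.8, cDC1 at 11.9 and 8.64 and mature DC at 7.03 and 7.39, against 7.68 and 5.69 in T cell-like cells. Ly96, which must bind Tlr4 for it to sense lipopolysaccharide, was at 31.5 and 28.3 CPM in IFN-low monocytes and 37.0 and 18.7 CPM, from 4 and 6 UMIs, in neutrophils. Only 14 and 60 neutrophils reached 2000 UMIs, so their shares are read before thinning, where 13.5% and 21.9% had a Tlr4 UMI against 4.57% and 3.79% of T cell-like cells.

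Tlr1, the partner of Tlr2 for triacylated lipoproteins, had a different distribution and was highest in macrophages. MHC-II macrophages had 102.5 CPM (92.6 to 113) and 119 (108 to 130), other macrophages 87.5 and 116, and Mrc1 macrophages 81.4 and 83.9. The first 2 of these types overlapped in both libraries. IFN-low monocytes had 61.5 and 66.7 CPM, Vegfa macrophages 51.3 and 43.6, and cDC2 38.1 and 44.1. In cDC1, at 12.3 and 9.87 CPM, Tlr1 was below its level in T cell-like cells (17.0 and 14.1), while B cells, with 89.8 and 71.5 CPM from 13 and 12 UMIs, were near the macrophages. MHC-II macrophages exceeded the other myeloid cells by 1.04 (0.86 to 1.20) and 1.07 (0.91 to 1.23) on the log2 scale.

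Tlr3, the receptor for double-stranded RNA, was the member most restricted to 1 type. In cDC1, the dendritic cells specialised in cross-presenting antigen from dead cells, it was at 320 CPM (300 to 342) in Irg1+/+ tumors. The library labelled Irg1-/- had 301 (275 to 329). Every other myeloid type was at 26.2 CPM or below, and the interval of cDC1 was apart from the next type in both libraries. The log2 fold of cDC1 over all other myeloid cells was 4.39 (4.20 to 4.58) and 4.26 (4.05 to 4.47), or 20.9-fold and 19.1-fold. cDC1 were 7.93% and 5.17% of the myeloid cells and held 73.1% and 61.2% of their Tlr3 UMIs. At equal depth 39.1% (32.3 to 46.2) and 42.5% (34.3 to 50.9) of cDC1 had a Tlr3 UMI, and before thinning 68.3% and 66.0%. T cell-like cells were at 3.54 and 3.14 CPM, with 0.283% and 0.719% of cells, and pDC had 0 and 1 UMIs, which for the count of 0 allows up to 13.1 CPM. Monocytes and macrophages were at 2.73 to 8.35 times the T cell-like level, with the exception of nonclassical monocytes, which had 1 and 4 UMIs. Ticam1, the adaptor of Tlr3, did not share this restriction, at 14.4 and 13.6 CPM in cDC1 and 16.5 and 13.6 in IFN-low monocytes. Tlr11, another receptor from the list, was at 123 and 117 CPM in cDC1 and at 15.5 CPM or below in every other myeloid type.

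**Figure D2:**
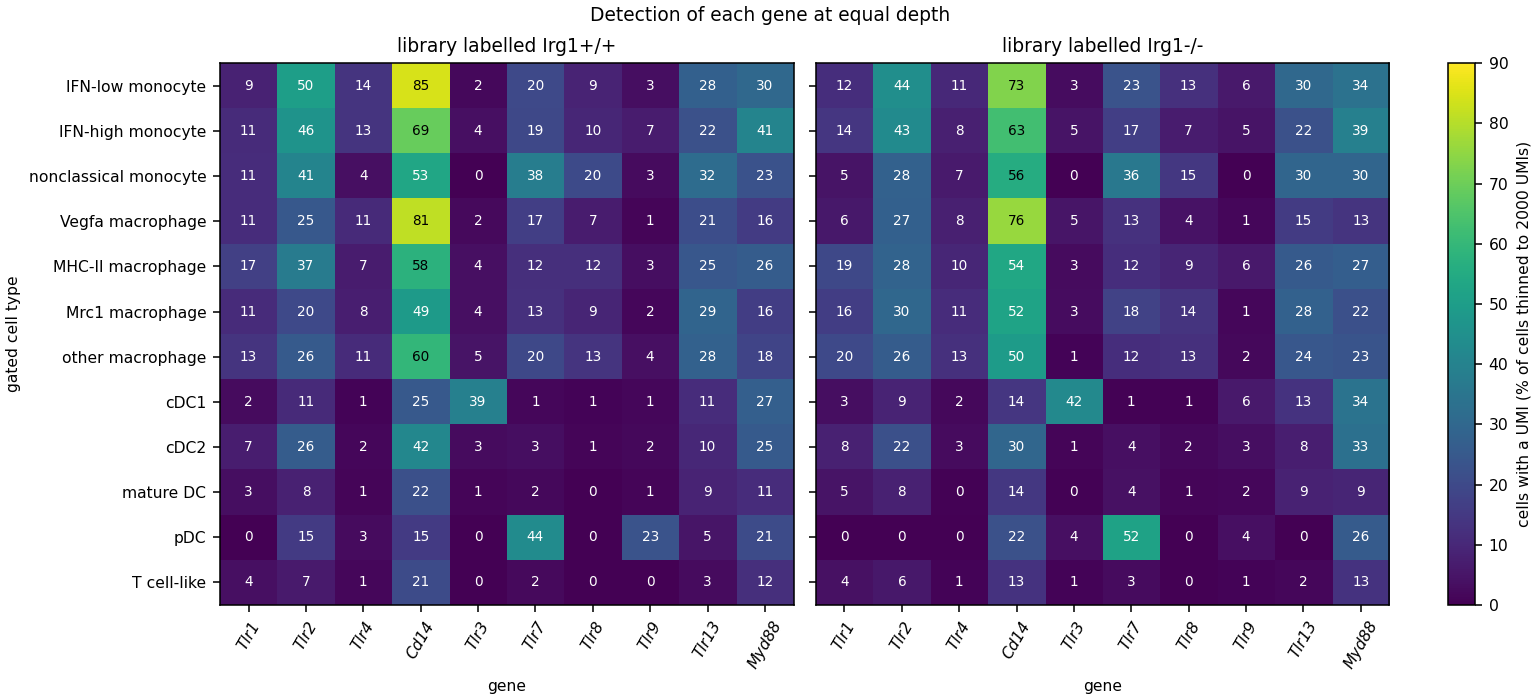
Percent of cells with at least 1 UMI of each gene after thinning every cell to 2000 UMIs, by gated type (rows) and gene (columns), for the library labelled Irg1+/+ (left) and the library labelled Irg1-/- (right). Colour and printed number give the percent, and T cell-like cells in the last row show the background. Neutrophils and eosinophils are not drawn because few reached 2000 UMIs. In the Tlr3 column cDC1 have 39.1% and 42.5% and no other type exceeds 5%.

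Tlr7, a receptor for single-stranded RNA, was highest in pDC, the main producers of type I interferon after viral encounter. The 40 and 30 pDC had 390 CPM (313 to 479) and 445 (346 to 563), a log2 fold of 2.42 (2.09 to 2.72) and 2.69 (2.31 to 3.03) over the other myeloid cells, and 43.6% and 51.9% had a UMI at equal depth. Nonclassical monocytes were second in both libraries at 181 (142 to 228) and 204 (156 to 260), and they were apart from pDC. Classical monocytes and macrophages lay between 66.2 and 126 CPM. In cDC1 the gene was at 8.30 and 6.17 CPM, under its level in T cell-like cells (13.9 and 11.8), so the dendritic cell classes were at opposite ends of the order. B cells had 62.2 and 83.4 CPM.

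Tlr9, which senses unmethylated CpG DNA, had the fewest UMIs of the members. In pDC it had 91.9 CPM (56.9 to 140.5) from 21 UMIs in Irg1+/+ tumors, whereas the library labelled Irg1-/- had 45.2 (18.2 to 93.0) from 7 UMIs. The log2 fold over other myeloid cells was 2.92 (2.18 to 3.53) in the first, and 1.22 in the second with an interval of -0.20 to 2.18 that includes 0. IFN-high monocytes had 29.8 and 28.6 CPM, IFN-low monocytes 16.5 and 30.6, and MHC-II macrophages 18.4 and 28.9. In the Irg1+/+ library the pDC interval was apart from that of IFN-high monocytes, the next type, and in the other library their interval overlapped that of IFN-low monocytes. T cell-like cells had 1.18 and 3.34 CPM. Neutrophils had 0 and 1 UMIs. The 0 in the Irg1+/+ library allows up to 27.8 CPM, so an absence of Tlr9 in its neutrophils was not detectable at this depth. The 1 UMI in the other library is 3.12 CPM, near the 3.34 of its T cell-like cells.

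Tlr8 and Tlr13 completed the endosomal receptors. Tlr8, which senses products of RNA breakdown, had few UMIs in dendritic cells, with 8 and 4 in cDC1 (2.89 and 2.47 CPM), 5 and 9 in mature DC and 1 and 0 in pDC. Of these classes cDC2 had the most, 17 and 35 UMIs (7.53 and 11.8 CPM), at 3.98 and 4.29 times the T cell-like level. In contrast, the 7 types of monocytes and macrophages lay between 40.9 and 71.8 CPM, against 1.89 and 2.75 in T cell-like cells. The highest were other macrophages in Irg1+/+ tumors (71.8, 56.2 to 90.2) and nonclassical monocytes in the library labelled Irg1-/- (71.1, 44.6 to 108), and neighbouring types overlapped in both. No single type of monocyte or macrophage was thus set apart by Tlr8.

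Tlr13, a receptor for bacterial ribosomal RNA that humans lack, was highest in neutrophils at 481 CPM (359 to 631) and 412 (345 to 489). These were apart from nonclassical monocytes, next at 213 (170 to 264) and 191 (145 to 246), and the log2 fold over other myeloid cells was 2.04 and 1.76. Before thinning, 50% and 44.5% of neutrophils had a UMI although they were among the shallowest cells, against 9.14% and 7.44% of T cell-like cells. All monocyte and macrophage types lay between 126 and 213 CPM, cDC1, cDC2 and mature DC between 43.4 and 72.3, and pDC had 2 and 1 UMIs (8.75 and 6.45 CPM, below the 18.4 and 12.4 of T cell-like cells).

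Myd88 was detected in every myeloid type and was highest in IFN-high monocytes at 277 CPM (249 to 308) and 268 (246 to 291), a log2 fold of 1.18 (1.02 to 1.34) and 0.77 (0.64 to 0.90) over the other myeloid cells. IFN-low monocytes had 176 (162 to 191) and 207 (193 to 223), so within classical monocytes the level went with the interferon genes that made the split. The lowest type was mature DC, at 53.3 and 62.8 CPM, under the T cell-like level of 65.0 and 76.1. Vegfa macrophages were next at 84.9 and 83.9. At equal depth 40.7% (34.1 to 47.6) and 39.3% (34.0 to 44.8) of IFN-high monocytes had a UMI, and 12.2% and 13.1% of T cell-like cells. pDC, the highest type for Tlr7 and Tlr9, had only 96.3 and 122.5 CPM of Myd88.

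Some of the receptors thus divided the dendritic cells, as the plot of shares at equal depth shows. cDC1 held Tlr3 and little of Tlr1, Tlr4, Tlr7 and Tlr8, all of which were at no more than 1.55 times the T cell-like level there. Tlr9 and Tlr13 were above the T cell-like level in both cDC1 and cDC2. Tlr9 was at 9.74 and 25.3 CPM in cDC1 and 11.95 and 14.5 in cDC2. Tlr13 was at 54.8 and 59.8 CPM in cDC1 and 55.8 and 52.5 in cDC2. pDC held Tlr7 and, from 21 and 7 UMIs, Tlr9, with no more than 2 UMIs of Tlr1, Tlr3, Tlr4, Tlr8 or Tlr13 in either library. In the library labelled Irg1-/- their Tlr9 interval overlapped that of the next type. cDC2 held Tlr2 at 192 and 152 CPM. In mature DC, of the 10 members only Tlr13 (43.4 and 72.3 CPM) and Tlr9 (5.37 and 10.0 CPM, from 13 and 19 UMIs) were more than 2-fold above T cell-like cells in both libraries.

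The libraries were then compared within each type. Of the 130 pairs of member and myeloid type, 108 had at least 20 UMIs over both libraries. The library labelled Irg1-/- was at least 1.5-fold higher in 11 of them and at least 1.5-fold lower in 4. These 15 became 23 with gate cuts 2 times as high and 27 with the mean of each cell's CPM. Of the 15, 5 stayed past 1.5-fold under every alternative run: Tlr9 in IFN-low monocytes, cDC1 and mature DC, Tlr13 in mature DC and Tlr1 in neutrophils. Tlr1 in neutrophils rested on 3 and 22 UMIs (1.12, -0.43 to 3.69). Tlr6, which shares stretches with Tlr1, was at 92.5 and 184 CPM in these cells, from 10 and 59 UMIs, and its part was not tested. The same rule was applied to every gene with at least 20 UMIs as the background. Depending on the type, 4.5% to 14.3% of all genes were higher and 5.07% to 22.4% lower. In mature DC 4 of 9 measured members were higher (Tlr3, Tlr7, Tlr9 and Tlr13) where 5.62% of all genes were, and none was lower where 9.31% were. The median log2 ratio of the members was 0.32 in mature DC against -0.06 for all genes. Over the alternatives Tlr3 in mature DC went from 0.13 to 1.26 and Tlr7 from 0.21 to 1.21, so both calls can be lost. In the same cells the interferon-activated monocyte list was at 1352 and 2382 CPM, led by Gbp2, and the classical monocyte list at 768 and 1263, led by Ly6c2, with no marker of either at 0, and their part was not tested. Of these 4, only Tlr13, at 43.4 and 72.3 CPM, had an interval above 0 (0.74, 0.36 to 1.12), and it was lower in T cell-like cells (-0.57, -1.02 to -0.15). The share of mature DC with a Tlr13 UMI was alike at equal depth, at 8.87% (6.02 to 12.5) and 8.78% (5.65 to 12.9). Before thinning the shares were 19.85% and 28.19%, and with thinning to 1000 UMIs 4.3% and 7.25%, with overlapping intervals in each case. The higher Tlr13 level was thus not seen in the equal-depth share.

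In the other types no more than 2 members passed the rule in 1 direction. Tlr9 was higher in IFN-low monocytes, 1 of 10 members where 7.1% of all genes were higher, and no member was lower where 6.64% were. Tlr9 also was the only member past the rule in MHC-II macrophages (background 4.5% higher and 5.07% lower) and in Mrc1 macrophages (8.15% and 10.1%), where it ranged from 0.07 to 1.01 over the alternatives. In cDC1 Tlr9 was higher, 1 of 9 members where 6.11% of genes were, and Cd14 lower where 8.06% were. Myd88 was higher in nonclassical monocytes, 1 of 8 members (background 10.1% higher and 13.4% lower), Tlr8 in cDC2 (0.63, -0.23 to 1.58, and 0.22 to 0.80 over the alternatives), 1 of 10 (5.31% and 8.15%), and Tlr1 in neutrophils, 1 of 6 (13.4% and 22.4%). In the cDC2 the classical monocyte list was at 2784 and 3967 CPM, and its part was not tested. Myd88 was lower in eosinophils, 1 of 2 (14.3% higher and 13.2% lower), at -0.75 (-1.98 to 0.55) from 11 and 14 UMIs, and -1.02 to -0.28 over the alternatives. In the eosinophils the classical monocyte list was at 1323 and 2319 CPM, and its part was not tested. Tlr9 and Cd14 were lower in pDC, 2 of 4 (10.4% and 12.6%). None passed in IFN-high monocytes (6.86% and 8.03%), Vegfa macrophages (5.88% and 9.47%) or other macrophages (5.84% and 9.16%).

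**Figure D3:**
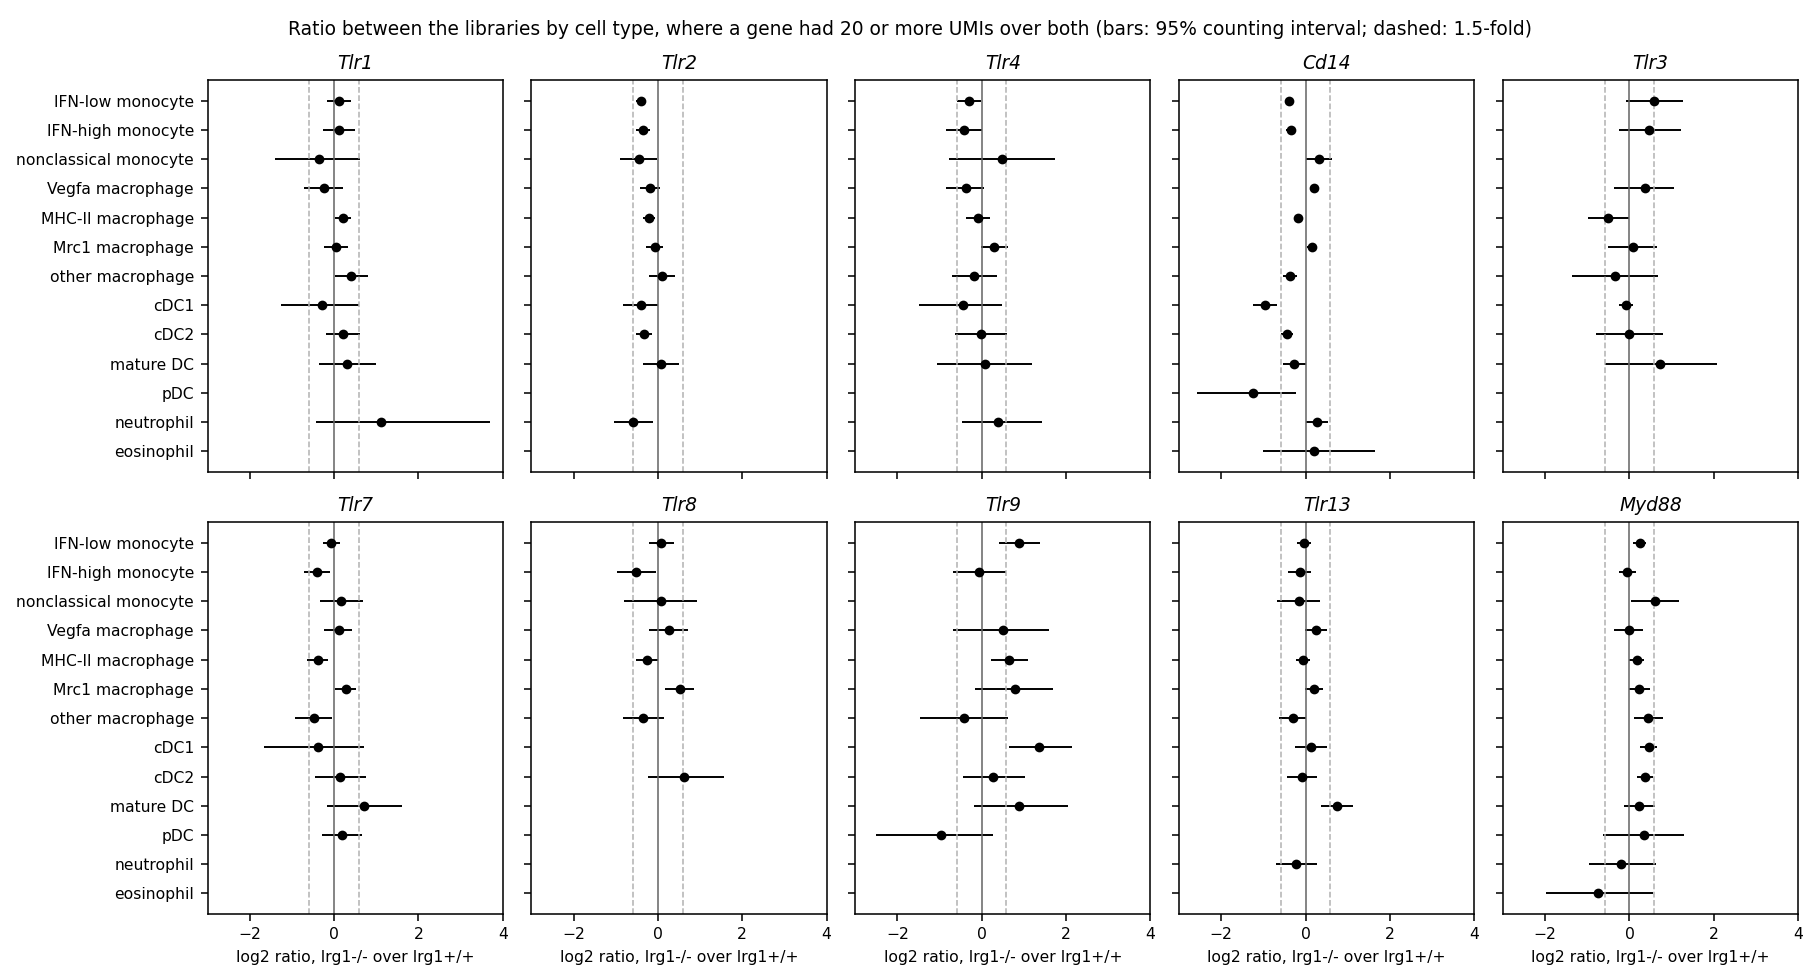
Log2 ratio of each gene between the libraries (labelled Irg1-/- over Irg1+/+) in each myeloid type, drawn where the gene had at least 20 UMIs over both libraries. Bars are 95% counting intervals, the solid line is 0 and the dashed lines are 1.5-fold. Tlr9 lies to the right in IFN-low monocytes (0.88), MHC-II macrophages (0.65) and cDC1 (1.37), and Tlr2 to the left in 9 of its 11 types.

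Tlr9 had the highest ratio of any of the 108 pairs, in cDC1. It was at 9.55 CPM (8.64 to 10.5) over all kept Irg1+/+ cells. Those of the library labelled Irg1-/- had 16.6 CPM (15.3 to 18.03). In cDC1 it was at 9.74 CPM from 27 UMIs and 25.3 CPM from 41 UMIs, a log2 ratio of 1.37 (0.64 to 2.13), and at equal depth 1.49% and 6.16% of cDC1 had a UMI. The log2 ratio was 0.88 (0.40 to 1.39) in IFN-low monocytes and 0.65 (0.21 to 1.10) in MHC-II macrophages. The intervals of Mrc1 macrophages (0.79) and mature DC (0.88) included 0, as did that of pDC (-0.96, -2.50 to 0.26), which was 0.08 with cells typed by clusters. T cell-like cells were also higher, at 1.47 (0.29 to 2.79) from 10 and 17 UMIs, and the part of free RNA in these differences was not tested. In cDC1 the classical monocyte list was also higher, at 1341 and 2301 CPM, as was the interferon-activated list, at 1192 and 1884. Their part was not tested. Across the 7 alternative ways of processing, the ratio ranged from 1.06 to 1.61 in cDC1, 0.69 to 1.24 in IFN-low monocytes and 0.47 to 0.68 in MHC-II macrophages.

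Tlr2 was lower in the library labelled Irg1-/- in 9 of the 11 types with enough UMIs, by less than 1.5-fold in each with the gates used here. The make-up of the monocytes differed between the libraries. Of the clusters named classical monocyte, 1 led by Vcan and Ccl24 held 443 and 223 cells and 1 led by Vcan and Ly6c2 held 40 and 219, and the part of this in the monocyte ratios was not tested. The interval was below 0 in 7 of the types: IFN-low monocytes (-0.41, -0.52 to -0.30), IFN-high monocytes (-0.35, -0.51 to -0.18), nonclassical monocytes (-0.45), MHC-II macrophages (-0.21), cDC1 (-0.40, but 0.02 with gate cuts 2 times as high), cDC2 (-0.34) and neutrophils (-0.58, -1.03 to -0.11). Under TMM scaling (edgeR's trimmed mean of M-values) the neutrophil ratio was -0.26, a shift of 0.33 that brings 0 inside its interval, and with gate cuts 2 times as high it was -0.92. Nonclassical monocytes were at -0.69 with those cuts. T cell-like cells were lower by as much (-0.42, -0.70 to -0.15), and the part of free RNA was not tested. Over all kept cells Tlr2 was at 171 and 166 CPM.

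Cd14 went in both directions. It was lower in the library labelled Irg1-/- in IFN-low monocytes (-0.39, -0.45 to -0.32), IFN-high monocytes (-0.36, -0.47 to -0.24), MHC-II macrophages (-0.18), other macrophages (-0.37), cDC2 (-0.44) and mature DC (-0.27, with an upper bound of -0.00), and higher in nonclassical monocytes (0.32, 0.01 to 0.62), Vegfa macrophages (0.19, 0.10 to 0.28), Mrc1 macrophages (0.15) and neutrophils (0.26, 0.02 to 0.52). With cells typed by clusters the direction turned in IFN-high monocytes (0.28), Vegfa macrophages (-0.08) and Mrc1 macrophages (-0.42), as it did in other macrophages without the 5% of cells with most UMIs (0.02). The largest differences were in types near the T cell-like level of Cd14, cDC1 (-0.95, -1.25 to -0.67) and pDC (-1.26, -2.56 to -0.22), and T cell-like cells were lower too (-0.65, -0.82 to -0.49). The macrophage list was at 893 and 835 CPM in cDC1, led by C1qb, and the classical monocyte list at 1341 and 2301 CPM, led by Ccr2 and Plac8, with no marker of either at 0. Their part in the Cd14 difference was not tested. In cDC1 typed by clusters the ratio was -0.42.

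Myd88 was higher in the library labelled Irg1-/- in 9 of 13 types, with an interval above 0 in 5 of them. These were IFN-low monocytes (0.24, 0.08 to 0.40), nonclassical monocytes (0.60, 0.04 to 1.17), other macrophages (0.45, 0.10 to 0.80), cDC1 (0.45, 0.25 to 0.66) and cDC2 (0.36, 0.17 to 0.56). In nonclassical monocytes the interferon-activated list was at 1077 and 1852 CPM, led by Gbp2. The NK cell list was at 854 and 472 CPM there, led by Prf1 and Gzma, and the part of both was not tested. In cDC1, where the classical monocyte list was higher as well, Myd88 was at 157 CPM (143 to 173) and 215 (193 to 239). The interferon-activated list was at 1192 and 1884 CPM in cDC1, led by Cxcl9, and the part of these lists was not tested. IFN-high monocytes, the highest type, did not share the higher Myd88 level (-0.05, -0.24 to 0.15), and T cell-like cells were higher by 0.23 (0.04 to 0.42).

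Among the remaining receptors 5 of the pairs counted above were past 1.5-fold, and of these Tlr13 in mature DC alone had an interval apart from 0. Tlr3 in cDC1, its main type, had a log2 ratio of -0.09 (-0.25 to 0.07), and it was lower in MHC-II macrophages (-0.50, -0.99 to -0.02, but 0.04 with clusters). Tlr7 in pDC had 0.19 (-0.28 to 0.66), and it was lower in IFN-high monocytes (-0.40, -0.71 to -0.09), MHC-II macrophages (-0.39, -0.63 to -0.15) and other macrophages (-0.49, -0.92 to -0.05). It was higher in Mrc1 macrophages (0.28, 0.03 to 0.53), where it was -0.23 with clusters. Tlr8 was higher in Mrc1 macrophages (0.52, 0.17 to 0.85) and lower in IFN-high monocytes (-0.51, -0.97 to -0.05), but with clusters these were -0.36 and 0.47. In Mrc1 macrophages the classical monocyte list was at 1701 and 3607 CPM, led by F13a1 and Ly6c2, with no marker at 0, and a macrophage cluster led by Ccl8 held 103 and 19 cells. Their part in the ratios of that type was not tested. For Tlr13 the ratio lay between -0.31 and 0.26 in the types with enough UMIs other than mature DC. Tlr4 was lower in IFN-low monocytes (-0.31, -0.60 to -0.03), and Tlr1 was higher in MHC-II macrophages (0.21, 0.01 to 0.41) and other macrophages (0.41, 0.02 to 0.81). Scaling by TMM added 0.33 to every neutrophil ratio and 0.21 to every eosinophil ratio, and turned the neutrophil ratios of Tlr13 (-0.23 to 0.10) and Myd88 (-0.21 to 0.12).

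A list of 67 other genes of the pathway was read in the same way. In both libraries the trafficking genes were led by Ctsb, an endosomal protease, in 24 of 26 sums of a type and library, the negative regulators by Dusp1, a phosphatase of MAP kinases, in 23, the transcription factors by Rel in 21 and the other receptors by Tlr6 in 20. Pik3ap1 led the adaptors in all 26, Ly86 the surface co-receptors in 17, Tab2 the kinases in 13 and Il1b the induced targets in 11. Unc93b1, which carries the endosomal receptors out of the endoplasmic reticulum, was at 766 and 800 CPM in pDC, 498 and 526 in MHC-II macrophages, and 382 and 358 in cDC1. Tlr12, which works with Tlr11, was at 78.8 and 96.8 CPM in pDC from 18 and 15 UMIs.

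The counts that follow give the genes of this list with at least 20 UMIs that were at least 1.5-fold higher and lower in the library labelled Irg1-/-, with the shares of all genes in brackets. IFN-low monocytes had 3 higher and 11 lower of 64 (7.1% and 6.64%), IFN-high monocytes 3 and 10 of 59 (6.86% and 8.03%), and nonclassical monocytes 7 and 3 of 52 (10.1% and 13.4%). Macrophages had 3 and 3 of 61 for Vegfa (5.88% and 9.47%), 7 and 3 of 64 for MHC-II (4.5% and 5.07%), 6 and 5 of 63 for Mrc1 (8.15% and 10.1%) and 2 and 3 of 58 for other (5.84% and 9.16%). In dendritic cells the counts were 4 and 7 of 61 for cDC1 (6.11% and 8.06%), 4 and 8 of 61 for cDC2 (5.31% and 8.15%), 2 and 2 of 62 for mature DC (5.62% and 9.31%) and 4 and 4 of 37 for pDC (10.4% and 12.6%). Neutrophils had 13 and 7 of 46 (13.4% and 22.4%) and eosinophils 2 and 8 of 27 (14.3% and 13.2%). In mature DC, pDC and Vegfa and other macrophages the list was near or under the shares of all genes. Of the induced targets alone, 9 of 15 were lower in IFN-low monocytes and 8 of 14 in IFN-high monocytes, where 6.64% and 8.03% of all genes were, and none was higher.

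Chemokines and cytokines made up most of these lower targets. In IFN-low monocytes Cxcl1, a neutrophil chemoattractant, was at 232 and 75.6 CPM (log2 ratio -1.62, -1.82 to -1.42), Cxcl2 at 2686 and 1122 (-1.26) and Cxcl3 at 93.9 and 31.4 (-1.58). Tnf was at 452 and 219 CPM (-1.04, -1.17 to -0.92). Of the negative regulators, Nfkbia, the inhibitor of NF-kappaB, was at 1141 and 625 (-0.87). In IFN-high monocytes Cxcl3 (-2.46) and Il6 (-1.10) had the lowest ratios. The chemokines were lower in T cell-like cells too, by -1.44 for Cxcl1, -0.82 for Cxcl2 and -1.20 for Cxcl3, whereas Tnf was lower there by -0.28, and the part of free RNA was not tested. The Vegfa macrophage list was lower in the same cells, at 2661 and 1022 CPM in IFN-low and 1814 and 808 CPM in IFN-high monocytes, led by Spp1 in the Irg1+/+ library and by Vegfa in the other, with no marker at 0. The part of these markers and of the cluster make-up given above was not tested. The median log2 ratio of the targets was -0.72 and -0.67 in these monocytes.

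In neutrophils 6 of 13 targets were higher and 1 lower, where 13.4% and 22.4% of all genes were. Il1b was at 7791 and 13890 CPM (0.83, 0.73 to 0.94), Cxcl2 at 14210 and 23270 (0.71, 0.63 to 0.79) and Ptgs2, the inducible cyclooxygenase, at 1249 and 2788 (1.15, 0.90 to 1.43), while Nos2, the inducible nitric oxide synthase, was at 139 and 34.3 from 15 and 11 UMIs (-2.0). In T cell-like cells the ratios were -0.28 for Il1b, -0.88 for Ptgs2 and -1.66 for Nos2. Other lists also differed within the neutrophils, with the classical monocyte list at 1730 and 2738 CPM, led by Plac8 and Ly6c2, the interferon-activated list at 1462 and 1986, led by Cxcl10 and Gbp2, and the NK cell list at 176 and 624, led by Gzma, with 3 of its markers at 0 in the Irg1+/+ library. Their part was not tested. In MHC-II macrophages 4 of 15 targets were higher (4.5% of all genes), among them Il6 (1.37, 0.48 to 2.40), Il10 (0.74, 0.37 to 1.13) and Acod1 itself (83.0 and 157 CPM, 0.91, 0.72 to 1.12), and 2 were lower (5.07%), Cxcl1 (-1.09) and Cxcl3 (-1.27). In these cells the classical monocyte list was at 3071 and 3958 CPM, led by Ccr2, and 1 macrophage cluster led by Ms4a7 held 240 and 433 cells. In cDC2 1 of 15 was higher and 6 lower, where 5.31% and 8.15% of all genes were. There the Vegfa macrophage list was at 1352 and 712 CPM, led by Mmp12 and Hilpda, and the classical monocyte list at 2784 and 3967, led by Plac8. No marker of these lists was at 0 in either type, and their part was not tested.

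**Figure D4:**
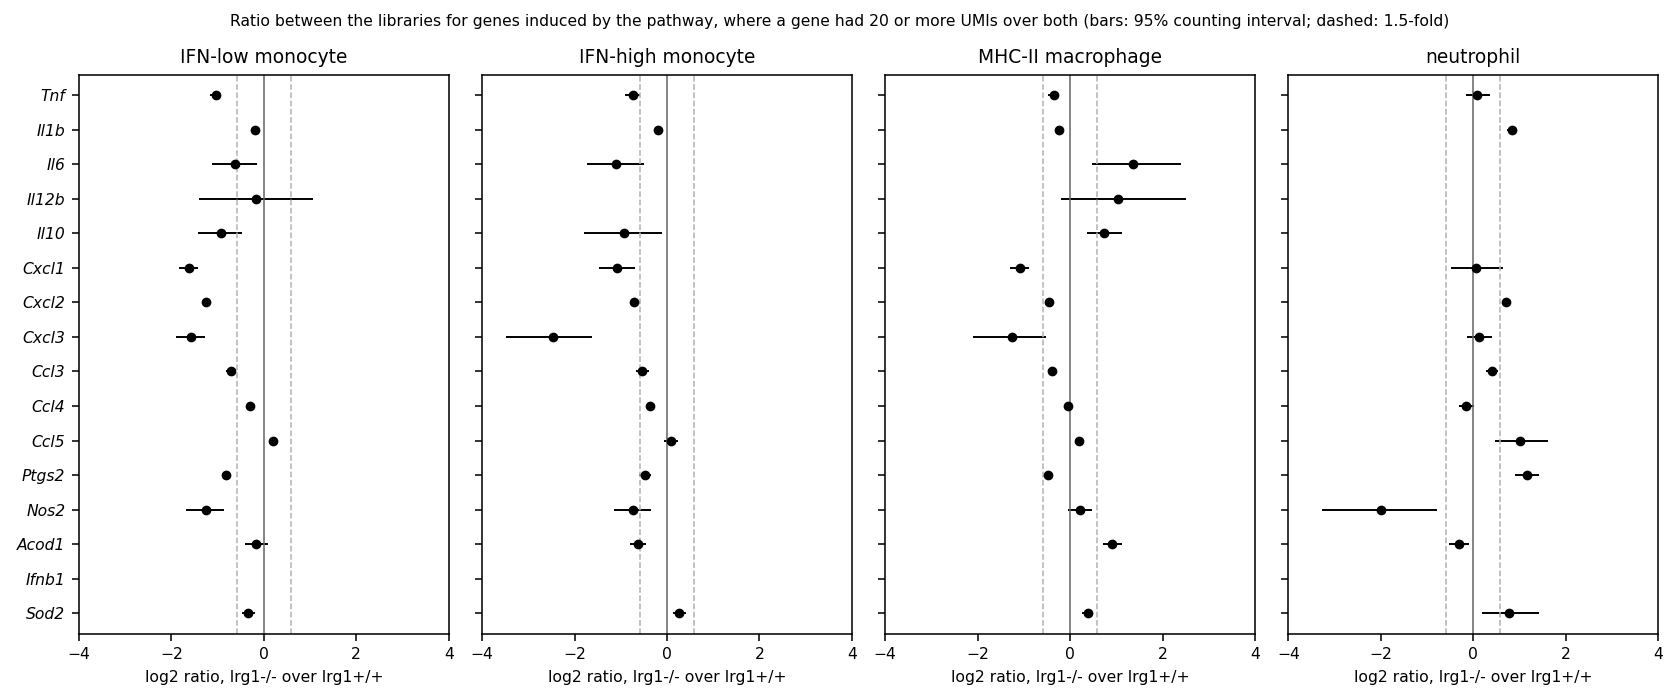
Log2 ratio between the libraries (labelled Irg1-/- over Irg1+/+) of 16 genes induced by Toll-like receptor signalling in IFN-low monocytes, IFN-high monocytes, MHC-II macrophages and neutrophils, drawn where the gene had at least 20 UMIs over both. Bars are 95% counting intervals, the solid line is 0 and the dashed lines are 1.5-fold, and Il6 in neutrophils, with 0 and 21 UMIs, has no upper bound and is not drawn. Points in the monocyte panels lie mostly left of 0, down to -2.46 for Cxcl3, and those of Il1b, Cxcl2 and Ptgs2 in neutrophils lie right of 0.

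Per type, the 2 highest and 2 lowest ratios were taken among the genes of the list with at least 50 UMIs, and a few genes recurred. Socs1, a feedback inhibitor of cytokine signalling, was above 0 in all 11 types with enough UMIs (interval above 0 in 9), from 0.22 to 1.35, and was among the 2 highest genes in 7. Irf7, the interferon regulatory factor downstream of Tlr7 and Tlr9, was above 0 in 13 of 13 (interval above 0 in 9), from 0.22 to 1.55 in Mrc1 macrophages with their higher monocyte markers, and was among the 2 highest in 6. Dusp1 was above 0 in 13 of 13 with every interval above 0. T cell-like cells had 0.65 for Irf7 and 0.26 for Socs1. Cxcl1 was below 0 in 9 of 11 types and among the 2 lowest genes in 8, down to -2.18 in cDC1.

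Each of the other types had further genes at the ends of its own list. Nonclassical monocytes had Cxcl2 (1.26) with Socs1 at the top, and Cyld (-1.44) and Tbk1 (-0.69) at the bottom. Vegfa macrophages had Ticam1 (0.67) and Ifnb1 (-0.99), Mrc1 macrophages Cxcl3 (0.97) and Ccl3 (-0.65), and other macrophages Nfkb2 (0.63), Irak4 (0.57) and Nos2 (-1.96). In dendritic cells these were Il12b (587 and 1106 CPM, 0.91) and the scavenger receptor Cd36 (-0.98) in mature DC, Cxcl2 (-0.84) in cDC1, Cxcl3 (-1.71) in cDC2, and Dusp1 (0.91), Ccl4 (0.83), Cxcl2 (-1.04) and Tab2 (-0.59) in pDC. Neutrophils had Ccl5 (1.01), Lgmn (-1.19) and Rel (-0.77), and eosinophils Ikbkb (0.87), Ccl5 (0.67), Ccl3 (-1.26) and Ccl4 (-1.01).

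The genes most like each member were taken by the correlation of log2(CPM + 1) over the 31 sums of a type and library with at least 50 cells, among 9250 genes. These sums share library and depth, and genes are not independent, so the correlations are descriptions. Tlr2 was most like Cd14 (Pearson r = 0.936), itself a member, then Mefv (0.933) and Slc15a3 (0.933), and Cd14 most like Clec4n (0.951), Slc15a3 (0.939) and Tlr2. Tlr8 was most like the C-type lectins Clec4a3 (0.945) and Clec4a1 (0.926) and the Fc receptor Fcgr4 (0.923). For Tlr13 these were Fndc3b (0.925), Nfe2l2 (0.922) and Pilra (0.902), for Tlr4 Slc31a2 (0.902), Mbnl2 (0.885) and Mcfd2 (0.883), and for Myd88 Evi2a (0.916), Gpr141 (0.850) and Themis2 (0.838). Tlr9 was most like Ly86, from the pathway list (0.878), Pld4 (0.847) and Slc7a7 (0.841). Tlr1 and Tlr7, both members, were most like each other or nearly so (0.855), with Rhbdf2 (0.851) and Milr1 (0.838) for Tlr1 and Apobec1 (0.860) and Milr1 (0.845) for Tlr7. Tlr3 had the weakest likeness, to Fuca1 (0.803), Ppt1 (0.795) and Pak1 (0.795).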

How the data were processed

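The authors trimmed the reads with fastp, extracted cell barcodes with UMI-tools, aligned them by STAR against GRCm38 as released by Ensembl, and kept cells with more than 200 genes and under 10% mitochondrial UMIs for analysis in Seurat, and the submitters' processing notes also name CASAVA 1.8. The deposited matrices hold raw counts of UMIs per gene and cell, 1 matrix for each library, with no normalization. The deposited matrices still held 124 and 102 cells above the mitochondrial limit, which were left out here. Depth was 43617546 and 36432067 UMIs. No column of another sample was present, and all values came from 1 library per genotype.

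Cells were typed by marker UMIs per 10000 of the cell (cut for each list, at least 3 markers detected, or 2 for eosinophils, and a margin of 1.5 between gates), so a type is a range of a score and its name stands for "-like". Of the typed cells 348 and 282 lay within 1.25-fold of a cut. Itgal and Nr4a1 were left out of the nonclassical list, and cuts were set after the scores were seen. The members, lists and tests were chosen with earlier results of these data known. No doublet caller was run. Cells passing more than 1 gate were set aside, and leaving out the 5% of cells with most UMIs was an alternative.

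UMIs were summed per type and library and scaled to CPM. Ratios used a pseudocount of 0.5 UMIs, needed at least 20 UMIs over both libraries and counted as different past 1.5-fold. With 1 library per genotype no test was run. Counts of 0 were given a limit of 3 UMIs. The named genes were every member, per type the 2 highest and 2 lowest pathway genes with at least 50 UMIs, the top gene of each group, and the 3 genes most like each member. The scripts, tested on simulated data, used Python 3.11.15, numpy 2.4.6, scipy 1.17.1, pandas 2.3.3, scanpy 1.11.5 and leidenalg 0.10.2 (clusters), edgeR 4.0.16 in R 4.3.3 (TMM factors only) and matplotlib 3.10.9. Protein sequences were not used here.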

Additional observations from a re-analysis of the deposited data

Results flagged for a closer look

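For 7 genes of the pathway list the libraries differed by at least 1.5-fold in opposite directions in different types, each with at least 50 UMIs and a counting interval apart from 0. No member met these limits in both directions, although Cd14, Tlr7 and Tlr8 had intervals on either side of 0. The difference between the types was not tested, since each type has 1 sum per library. Values are log2 ratios of the library labelled Irg1-/- over Irg1+/+. Acod1 was at 0.91 in MHC-II macrophages and -0.92 in eosinophils. Ccl4 was at 0.83 in pDC and -1.01 in eosinophils. Cxcl2 was at 1.26 in nonclassical monocytes and -1.26 in IFN-low monocytes, and Cxcl3 at 0.97 in Mrc1 macrophages and -2.46 in IFN-high monocytes. Of the 13 myeloid types, Cxcl2 was below 0 in 11, each with its interval below 0, and above 0 in 2. Il10 was at 0.74 in MHC-II macrophages and -0.94 in IFN-high monocytes, and Il6 at 1.37 and -1.10 in the same types. Ptgs2 was at 1.15 in neutrophils, -0.82 in IFN-low monocytes and -0.88 in T cell-like cells.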

How the results depend on the processing

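No paired analysis was possible because each genotype has 1 library, and leaving out a replicate was not possible for the same reason. The number of member and type pairs past 1.5-fold, 15, was 23 with gate cuts 2 times as high and 27 with the mean of each cell's CPM, and between 12 and 17 otherwise. The median log2 fold of the highest type in the library labelled Irg1-/-, 1.49, was 1.76 under TMM scaling. The median percent of cells with a UMI in the highest type, 39.9 and 40.9 at 2000 UMIs, was 21 and 24.9 at 1000 UMIs. TMM scaling shifted all neutrophil ratios by 0.33 and eosinophil ratios by 0.21, and the others by less than 0.1. With clusters in place of gates 18 of 130 ratios moved by more than their counting interval. Of the ratios whose interval was apart from 0 or that were past 1.5-fold, 10 turned direction under some setting, 8 of them with clusters: Cd14 in IFN-high monocytes (0.28), Vegfa (-0.08) and Mrc1 macrophages (-0.42), Tlr8 in IFN-high monocytes (0.47) and Mrc1 macrophages (-0.36), Tlr3 in MHC-II macrophages (0.04), Tlr7 in Mrc1 macrophages (-0.23) and Tlr9 in pDC (0.08). The other two were Cd14 in other macrophages without the 5% of cells with most UMIs (0.02) and Tlr2 in cDC1 with doubled cuts (0.02). Tlr8 in Mrc1 macrophages was also -0.10 with the mean of each cell's CPM. The Cd14 ratio in cDC1 ranged from -1.12 to -0.42, Tlr2 in cDC1 from -0.42 to 0.02, Tlr9 in pDC from -1.07 to 0.08, Tlr13 in mature DC from 0.63 to 0.86 and Myd88 in cDC1 from 0.35 to 0.49. The highest type of Tlr8 varied between settings, and Tlr1 in the library labelled Irg1-/- was highest in other macrophages under the 5% mitochondrial limit and under doubled cuts. The causes were not tested.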
